A study of Mus musculus with 20 samples.

Results

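The genes described here are Igf1, its receptors Igf1r and Igf2r, and the IGF-binding protein genes Igfbp1 to Igfbp7, 10 of the 50559 genes counted. They were chosen by gene symbol, as members of one family, with earlier results of these data in view, among them the levels of Igfbp3 in Aldafermin+MYC and FGF19+MYC tumors. RNA sequencing covered 20 libraries in 4 groups of 5, namely livers and the tumors called Aldafermin+MYC, FGF19+MYC and sgTrp53+MYC. All mice were wild-type C57BL/6J females, young adults when injected, and each library came from a different mouse. Tumors followed hydrodynamic injection of plasmids with the SB100X transposase, which places the transgenes in hepatocytes. MYC, driven by the EF1a promoter, was delivered to every tumor group, together with FGF19 (a human gut hormone that acts on the liver), with Aldafermin (an engineered analog of that hormone), or with a guide RNA against the tumor suppressor gene Trp53. The livers are labelled as non treated, whereas the methods of the study describe a plasmid for a red fluorescent protein. The treatment field of the sgTrp53+MYC libraries reads None, and their group was read from the titles.

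IGF1 and IGF2 are growth factors that signal through the tyrosine kinase receptor IGF1R, while IGF2R binds IGF2 without such a signal and carries it to lysosomes. The hepatocytes of the adult liver make most of the circulating IGF1, in response to growth hormone, and in the mouse Igf2 is a fetal gene that the liver switches off after birth. IGF-binding proteins carry the IGFs in blood and tissue and govern how much of them reaches the receptors.

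Compared with livers, all 3 tumor groups held far less Igf1 and less Igfbp2, Igfbp4 and Igfbp7, and more Igf2r. On a scale of library totals, without TMM factors, Igfbp2 in sgTrp53+MYC tumors and Igfbp7 in Aldafermin+MYC and FGF19+MYC tumors no longer passed. Without a filter on low counts, most of the calls of Igf1r, Igfbp2, Igfbp5 and Igfbp7 in sgTrp53+MYC tumors against livers were lost. Igf1 fell 21.9-fold in Aldafermin+MYC, 30.5-fold in FGF19+MYC and 39.5-fold in sgTrp53+MYC tumors. Igfbp1 rose 3.79-fold in Aldafermin+MYC and 4.58-fold in FGF19+MYC tumors, and Igfbp3 rose 2.70-fold in Aldafermin+MYC tumors. Between tumors, Igfbp2 was 13.6-fold higher in sgTrp53+MYC than in Aldafermin+MYC tumors, while the levels of Igf1, of both receptors and of Igfbp4 to Igfbp7 did not pass the test in any pair of tumor groups in the main fit.

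Promoters are shown for the ligand, the receptor that rose and the 3 binding proteins called in a pair of tumor groups in the main fit, since the results below turn on these 5 members. Some of those calls were lost in other fits, as given below. Each is a 300 base stretch of GRCm39 from 250 bases before to 50 bases after the start of transcription in RefSeq, on the strand of the gene. They were read from a RefSeq table of build GRCm38.p6 and matched base for base to a single place on the same chromosome of GRCm39. Capitals mark the searched motifs, which were CACGTG (the E-box, the letters that MYC and its partner MAX bind), CAAAACA (the core of the insulin response element), TATAAA (the TATA box) and TTCNNNGAA (the STAT5 element), on both strands. No matches overlapped.
Igf1, chr10:87696723-87697022, plus strand: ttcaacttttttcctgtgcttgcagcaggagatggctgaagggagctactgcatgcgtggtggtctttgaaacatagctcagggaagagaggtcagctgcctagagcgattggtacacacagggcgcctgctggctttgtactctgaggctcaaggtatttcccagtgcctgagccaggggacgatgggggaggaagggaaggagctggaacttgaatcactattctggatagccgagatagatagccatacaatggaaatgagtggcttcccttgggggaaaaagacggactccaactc
Igf2r, chr17:12988544-12988843, minus strand: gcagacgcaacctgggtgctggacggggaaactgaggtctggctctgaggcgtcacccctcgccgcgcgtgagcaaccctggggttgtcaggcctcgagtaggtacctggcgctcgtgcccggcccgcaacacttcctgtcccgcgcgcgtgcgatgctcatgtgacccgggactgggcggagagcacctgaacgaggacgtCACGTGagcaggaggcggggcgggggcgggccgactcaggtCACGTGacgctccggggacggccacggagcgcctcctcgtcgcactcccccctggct
Igfbp1, chr11:7147537-7147836, plus strand: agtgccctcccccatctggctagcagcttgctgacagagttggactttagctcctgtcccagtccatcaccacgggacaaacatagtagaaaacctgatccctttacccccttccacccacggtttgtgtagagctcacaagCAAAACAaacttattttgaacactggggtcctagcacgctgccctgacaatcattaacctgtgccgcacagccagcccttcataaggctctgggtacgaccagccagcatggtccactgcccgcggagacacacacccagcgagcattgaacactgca
Igfbp2, chr1:72863389-72863688, plus strand: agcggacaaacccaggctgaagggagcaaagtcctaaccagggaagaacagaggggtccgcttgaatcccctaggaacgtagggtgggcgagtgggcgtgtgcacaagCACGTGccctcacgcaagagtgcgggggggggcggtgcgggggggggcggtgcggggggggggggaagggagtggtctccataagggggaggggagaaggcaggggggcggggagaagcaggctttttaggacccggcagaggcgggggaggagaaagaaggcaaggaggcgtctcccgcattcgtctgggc
Igfbp3, chr11:7163874-7164173, minus strand: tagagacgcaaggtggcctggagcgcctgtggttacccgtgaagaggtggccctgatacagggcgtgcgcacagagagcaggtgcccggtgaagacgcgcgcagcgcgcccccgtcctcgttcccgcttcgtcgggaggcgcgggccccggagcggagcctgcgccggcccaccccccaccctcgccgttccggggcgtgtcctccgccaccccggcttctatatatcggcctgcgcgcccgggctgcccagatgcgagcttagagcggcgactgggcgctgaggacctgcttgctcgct
The promoter of Igf2r held 2 E-boxes, which began 48 and 7 bases before the start, and this promoter of Igfbp2 held 1, which began 142 bases before it. CAAAACA stood in the promoter of Igfbp1, 108 bases before the start. In the promoters of Igf1 and Igfbp3 no searched motif was found. The stretch of Igf1 lies inside the gene as GENCODE M39 places it (from chr10:87693642), so it belongs to a start within the gene, and no stretch at the outer end was searched. A second promoter of Igfbp2 (chr1:72864296-72864595), not printed, held no searched motif. Among the other members, whose promoters are not printed, TATAAA was found in those of Igfbp4 and Igfbp6. TTCNNNGAA was in none of the 11 promoter sequences of the 10 members. Of all 32851 promoters in the table, 7.15% held CACGTG, 6.28% CAAAACA, 13.6% TATAAA and 8.3% TTCNNNGAA. A match is a description of the letters and not a bound site.

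On GRCm39, in the GENCODE M39 annotation, 4 of the binding protein genes lie in 2 pairs that point toward each other. Igfbp1 (chr11:7147651-7152546, plus strand) and Igfbp3 (chr11:7156086-7164179, minus strand) are separated by 3539 bases, with no gene between them. Igfbp2 (chr1:72863606-72891634, plus strand) and Igfbp5 (chr1:72897091-72914043, minus strand) are separated by 5456 bases, again with no gene between them. Igf1 is at chr10:87693642-87772904 (plus strand), Igf1r at chr7:67601518-67883416 (plus strand) and Igf2r at chr17:12901293-12988614 (minus strand). Igfbp4 is at chr11:98932064-98945218 (plus strand), Igfbp6 at chr15:102052697-102057953 (plus strand) and Igfbp7 at chr5:77493130-77555931 (minus strand). Genes of the opposite strand overlap Igf1 (Igf1os), Igf1r (Pgpep1l), Igf2r (Airn) and Igfbp7 (Polr2b), among others. The libraries were stranded, but the strand setting of the counting is not given in the sources used here, so reads of such partners may not have been told apart.

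Depth on genes was 18004977 to 66354724 reads a library, and the sgTrp53+MYC tumors were the deepest, from 54042455 reads. These 5 libraries stood alone in the second count table, so that table and group cannot be told apart. Reads that fell on more than 1 gene made up 11.1 to 14.6% of all their reads, aligned or not, against 3.03 to 6.30% elsewhere. Reads that did not align made up 5.34 to 6.82% in these libraries and 15.3 to 34.0% elsewhere. Trp53, the gene targeted by the guide, was between 18.7 and 79.9 CPM (reads scaled to a common library total adjusted by TMM factors) in sgTrp53+MYC tumors, below every other tumor (lowest 90.8 CPM), whereas livers were at 28.8 to 36.4 CPM. The tumor markers Afp and Gpc3 were above every liver in all 15 tumors. The summed level of 9 hepatocyte markers was 193861 to 240332 CPM in livers and 4178 to 30171 CPM in tumors. In tumors and livers, the sums were 142 to 818 and 492 to 807 CPM for macrophages, 1.81 to 779 and 44.3 to 124 CPM for cholangiocytes, 0.808 to 5.99 and 2.30 to 4.44 CPM for T and NK cells, 0.215 to 1.27 and 1.67 to 4.55 CPM for B and plasma cells, and 15.1 to 539 and 127 to 279 CPM for erythroid cells. No marker of these lists was at 0 in every library. Levels here and below are CPM scaled by TMM factors, with means below as the mean ± SD of 5 libraries, and replicates are different mice listed in the order of their numbers. In bulk tissue, fewer cells of a type and less RNA per cell cannot be told apart. The test of each difference was edgeR's quasi-likelihood test over 14333 genes, with Benjamini-Hochberg adjustment and a threshold of 0.05 for a call.

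**Figure D1:**
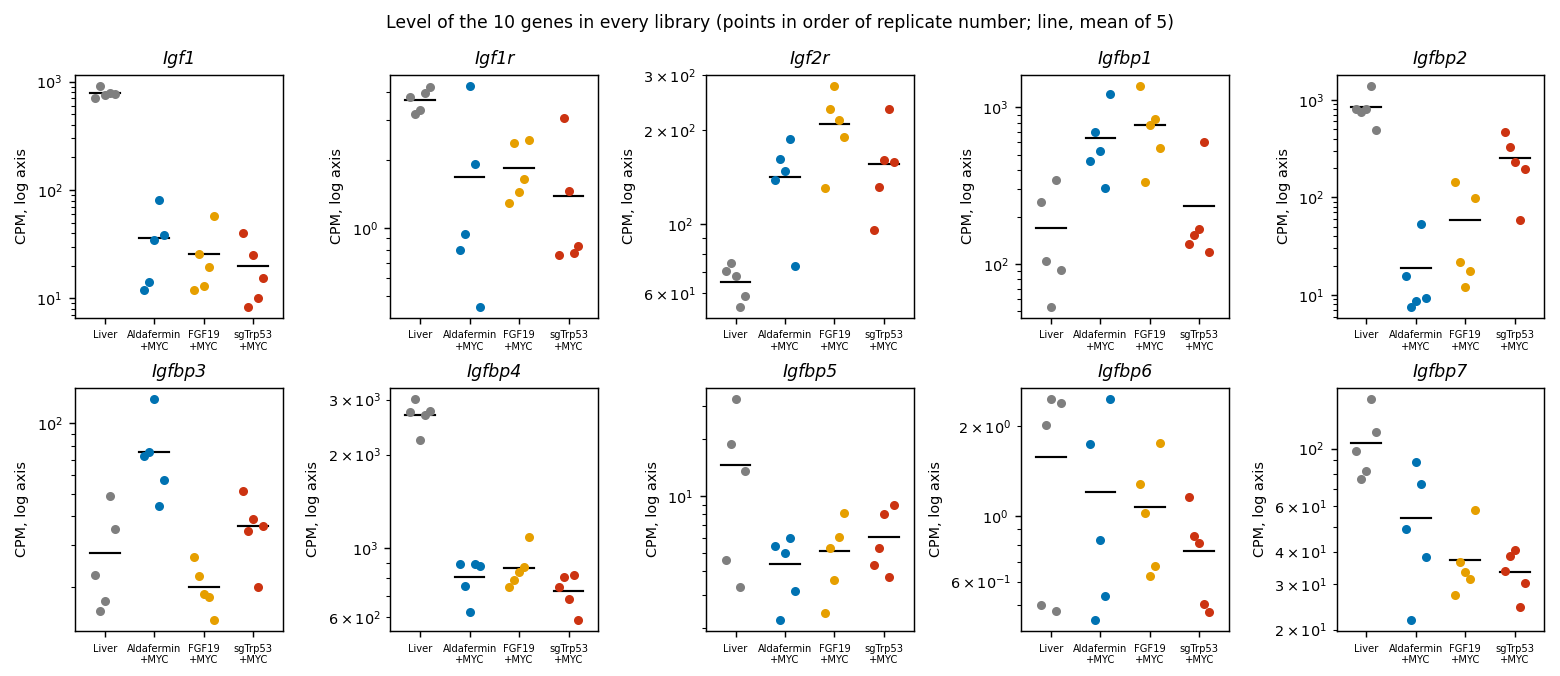
Level of each of the 10 genes (CPM, log axis) in livers, Aldafermin+MYC, FGF19+MYC and sgTrp53+MYC tumors, with a point per library and a line at the mean of 5. Igf1 and Igfbp4 in livers stand above every tumor, Igfbp3 is highest in Aldafermin+MYC tumors, and Igfbp2 in sgTrp53+MYC tumors lies between livers and most other tumors.

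The first question was how the IGF genes of each kind of tumor compared with those of liver. Against livers, 3 members were higher and 6 lower in Aldafermin+MYC tumors, where 38.4% of all tested genes were called higher and 31.9% lower. In FGF19+MYC tumors 2 members were higher and 5 lower, beside 36.9% and 32.9% of all tested genes. In sgTrp53+MYC tumors 1 member was higher and 6 lower, beside 36.9% and 33% of all tested genes. The median log2 fold change of the 10 members was -1.05, -1.25 and -1.35 in these comparisons, against 0.13, 0.06 and 0.07 over all genes. The 3 comparisons share the liver libraries. They also depend on a common scale, since hepatocyte genes take a large share of liver reads, and scaling by library totals without TMM factors would raise the median of all genes by 0.85, 0.85 and 0.88 on the log2 scale.

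Igf1, the hormone itself, was measured at 700.3, 920.3, 755, 785 and 763 CPM in the livers, a narrow range around a mean of 785 ± 81.9. In Aldafermin+MYC tumors it was 11.9, 14.0, 34.7, 80.7 and 38.2 CPM, and in FGF19+MYC tumors 12.1, 25.8, 13.1, 19.5 and 58.2 CPM. Replicate 4 of the former and replicate 5 of the latter were the highest, and these 2 libraries also had the highest sums of hepatocyte markers of their groups (23626 and 30171 CPM). The part of such cells in the level of Igf1 was not tested. In sgTrp53+MYC tumors Igf1 was 40.2, 8.42, 24.9, 10.2 and 15.5 CPM, and replicate 1, the highest, again had the highest sum of hepatocyte markers (12884 CPM). No tumor came near the lowest liver. Against livers, Aldafermin+MYC tumors had a log2 fold change of -4.45 ± 0.59 (SE, adjusted p = 1.66e-06), FGF19+MYC tumors of -4.93 ± 0.60 (SE, adjusted p = 5.97e-07) and sgTrp53+MYC tumors of -5.30 ± 0.61 (SE, adjusted p = 2.65e-07).

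The order of Igf1 was thus livers, Aldafermin+MYC, FGF19+MYC and sgTrp53+MYC tumors, and the 3 tumor groups did not differ beyond their spread. Their means were 35.9 ± 27.7, 25.7 ± 19.0 and 19.9 ± 13.1 CPM. The interval of the log2 difference ran from -0.59 to 1.55 between Aldafermin+MYC and FGF19+MYC tumors (adjusted p = 0.952), which leaves room for a difference of either sign. It ran from -0.22 to 1.93 between Aldafermin+MYC and sgTrp53+MYC tumors, and from -0.70 to 1.45 between FGF19+MYC and sgTrp53+MYC tumors.

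**Figure D2:**
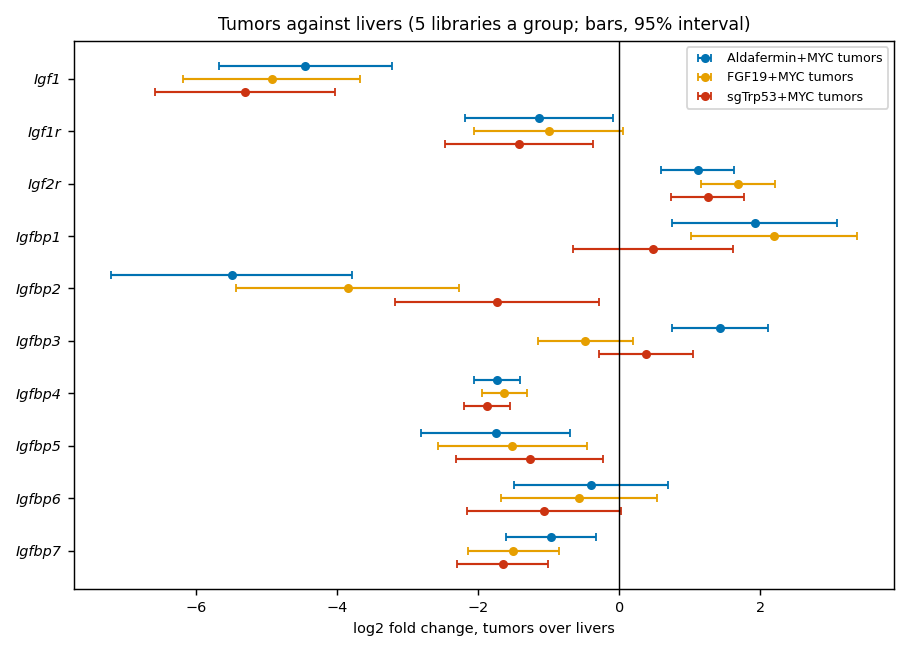
Log2 fold change of each gene in Aldafermin+MYC, FGF19+MYC and sgTrp53+MYC tumors over livers (x axis), with bars for the 95% interval of the quasi-likelihood fit to 5 libraries a group. Igf1, Igfbp2, Igfbp4, Igfbp5 and Igfbp7 lie to the left of 0 in all 3 groups and Igf2r to the right, while Igfbp3 lies to the right with its whole interval only in the Aldafermin+MYC tumors.

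Of the receptors, Igf2r rose and Igf1r was low in every group. Igf2r, the receptor that clears IGF2, was 70.4, 75.2, 67.9, 54.4 and 58.7 CPM in livers. It was 139, 161, 148, 187 and 73.2 CPM in Aldafermin+MYC tumors, of which only replicate 5 reached into the range of livers. In FGF19+MYC tumors it was 131, 233, 278, 215 and 190.3 CPM. In sgTrp53+MYC tumors it was 95.4, 131, 160.4, 233 and 159 CPM, and both of these groups stood wholly above the livers. Igf2r rose by 1.12 ± 0.25 (SE, adjusted p = 0.000527) on the log2 scale in Aldafermin+MYC, by 1.68 ± 0.25 (SE, adjusted p = 7.79e-06) in FGF19+MYC and by 1.25 ± 0.25 (SE, adjusted p = 0.000172) in sgTrp53+MYC tumors. From high to low the order was FGF19+MYC, sgTrp53+MYC and Aldafermin+MYC tumors and livers, and the neighbours among the tumors did not differ beyond their spread (adjusted p = 0.25 and 0.737).

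Igf1r, which carries the growth signal of both IGFs, was at 3.19 to 4.22 CPM in livers, 0.449 to 4.27 CPM in Aldafermin+MYC, 1.28 to 2.46 CPM in FGF19+MYC and 0.758 to 3.08 CPM in sgTrp53+MYC tumors. All FGF19+MYC and sgTrp53+MYC tumors were below all livers, and only replicate 3 of the Aldafermin+MYC tumors, at 4.27 CPM, was not. That library had the highest summed level of 10 markers of stellate cells and fibroblasts among all 20 (2121 CPM, against 252 to 754 CPM in the other Aldafermin+MYC tumors). Most of that sum was Col1a1, Col1a2 and Col3a1 (871, 533 and 593 CPM). Pdgfrb and Des were also above every liver, while Lrat, Reln, Dcn, Lum and Pdgfra were below every liver. Its sum of macrophage markers was likewise the highest of all 20 (818 CPM). The part of any of these cells in its Igf1r was not tested. Igf1r fell in sgTrp53+MYC tumors (-1.42 ± 0.50 on the log2 scale, SE, adjusted p = 0.017). In Aldafermin+MYC tumors it was called at the edge of the threshold (-1.14, adjusted p = 0.0496). Leaving out any of these 10 libraries but Aldafermin+MYC replicate 3 ended that call, with adjusted p up to 0.126, and without that replicate the value was -1.85 (adjusted p = 0.00153). With library totals in place of TMM factors both calls were lost (-0.25 in Aldafermin+MYC and -0.52 in sgTrp53+MYC tumors). In FGF19+MYC tumors the value was -1.003 (interval from -2.05 to 0.05, adjusted p = 0.0826), which DESeq2 (-1.06, adjusted p = 0.0478), the fit to only these 2 groups (-1.07, adjusted p = 0.00122) and the first table alone (-1.07, adjusted p = 0.0496) called. Per kilobase of exon, Igf2r was 38.1 ± 8.997 times the level of Igf1r in livers and 269 ± 128, 254 ± 95.2 and 325 ± 205 times in Aldafermin+MYC, FGF19+MYC and sgTrp53+MYC tumors. The size of these ratios depends on the division by length, 9.371 kb for Igf2r and 19.768 kb for Igf1r.

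Among the binding proteins, Igfbp4 moved the most evenly. Its product inhibits IGF action until it is cut by the protease PAPP-A. Igfbp4 was 2729, 3018, 2222, 2682 and 2761 CPM in livers and 589 to 1084 CPM over the 15 tumors, so the ranges were far apart. The means were 867 ± 129.6 CPM in FGF19+MYC, 806 ± 117 CPM in Aldafermin+MYC and 731 ± 95.7 CPM in sgTrp53+MYC tumors. Log2 fold changes against livers were -1.73 in Aldafermin+MYC, -1.63 in FGF19+MYC and -1.88 in sgTrp53+MYC tumors, each with a standard error of 0.15 (adjusted p = 6.96e-09, 1.61e-08 and 2.32e-09). Between tumors the intervals of Igfbp4 were the narrowest of the family, from -0.42 to 0.21 for Aldafermin+MYC against FGF19+MYC and from -0.07 to 0.56 for FGF19+MYC against sgTrp53+MYC tumors on the log2 scale.

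Igfbp2, which encodes a carrier of IGFs, was 810.2, 755, 796, 1397 and 494 CPM in livers. In Aldafermin+MYC tumors it was 15.5, 7.62, 8.75, 53.0 and 9.34 CPM, with replicate 4 apart from the other 4 libraries. In FGF19+MYC tumors it was 144, 21.7, 11.9, 17.7 and 99.2 CPM, with replicates 1 and 5 high. In sgTrp53+MYC tumors it was 467, 328, 231, 59.1 and 195 CPM, with replicate 4 low. Every tumor was below every liver. Igfbp2 fell 45.2-fold (log2 -5.50 ± 0.82, SE, adjusted p = 7.03e-06) in Aldafermin+MYC, 14.5-fold (log2 -3.85 ± 0.75, SE, adjusted p = 0.000157) in FGF19+MYC and 3.32-fold (log2 -1.73 ± 0.69, SE, adjusted p = 0.0318) in sgTrp53+MYC tumors. Without Aldafermin+MYC replicate 4 the first value was -6.37, and without FGF19+MYC replicate 1 the second was -4.50, both with a fold over 1.5 times as large as with all libraries. Among the fits that left out 1 library, the last call was lost without liver replicate 4 (-1.48) and without sgTrp53+MYC replicate 3 (-1.70), 4 (-1.48) or 5 (-1.65). It was also lost with library totals in place of TMM factors (-0.88, adjusted p = 0.23).

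Igfbp1, an acute and insulin-repressed product of hepatocytes, moved the other way. It was 250.3, 104, 53.8, 345 and 91.3 CPM in livers, a wide spread with replicates 1 and 4 high. In Aldafermin+MYC tumors it was 452, 697, 523, 307 and 1222 CPM, and in FGF19+MYC tumors 1376, 333, 769.5, 837 and 552 CPM. Only the lowest library of each of these groups reached into the range of livers. Igfbp1 rose by 1.92 ± 0.56 (SE, adjusted p = 0.0048) on the log2 scale in Aldafermin+MYC and by 2.195 ± 0.56 (SE, adjusted p = 0.00191) in FGF19+MYC tumors. In sgTrp53+MYC tumors Igfbp1 was 135, 153, 168, 603 and 119 CPM, and 4 of these 5 libraries lay inside the range of livers. There the log2 fold change was 0.48 (interval from -0.65 to 1.61, adjusted p = 0.442), -0.23 without replicate 4, and 1.38 (adjusted p = 0.0235) with library totals in place of TMM factors.

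Igfbp3, the main carrier of circulating IGF and a known target of p53 in human cells, was 22.5, 15.7, 17.4, 48.6 and 35.3 CPM in livers. It was 72.6, 75.1, 127, 44.1 and 57.4 CPM in Aldafermin+MYC tumors, where only replicate 4 fell inside the range of livers. In sgTrp53+MYC tumors it was 51.4, 34.5, 39.1, 20.02 and 36.3 CPM, and in FGF19+MYC tumors 26.8, 22.1, 18.6, 18.0 and 14.4 CPM, both overlapping the livers. Against livers Igfbp3 rose in Aldafermin+MYC tumors, by 1.43 ± 0.32 on the log2 scale (SE, adjusted p = 0.000635). This comparison uses the Aldafermin+MYC libraries whose Igfbp3 was known when the genes were chosen, so it is not independent of that choice. Igfbp3 had -0.48 (interval from -1.15 to 0.19, adjusted p = 0.189) in FGF19+MYC tumors, whose levels were also known at that choice. In sgTrp53+MYC tumors it had 0.38 (interval from -0.29 to 1.05, adjusted p = 0.298). With library totals in place of TMM factors, these became 0.36 (adjusted p = 0.311) and 1.26 (adjusted p = 0.0014).

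Igfbp7, a matrix protein of vessels and stroma with weak affinity for IGFs, was 76.4 to 156 CPM in livers, 21.8 to 88.7 CPM in Aldafermin+MYC, 27.1 to 57.9 CPM in FGF19+MYC and 24.5 to 40.5 CPM in sgTrp53+MYC tumors. It fell in all 3 tumor groups, with log2 fold changes of -0.97, -1.503 and -1.66 (adjusted p = 0.00818, 0.000245 and 9.05e-05). With library totals only the fall in sgTrp53+MYC tumors passed (-0.76, adjusted p = 0.0393), while the values were -0.09 in Aldafermin+MYC and -0.64 in FGF19+MYC tumors (adjusted p = 0.807 and 0.0784). The summed level of 8 endothelial markers was also lower in tumors (56.1 to 192 CPM) than in livers (247 to 384 CPM). Kdr, Tek, Stab2, Clec4g and Vwf were lower in every tumor than in every liver, while Lyve1, Pecam1 and Cdh5 overlapped. Pecam1 was 14.3 to 49.8 CPM in tumors and 21.4 to 40.5 CPM in livers, and Cdh5 12.8 to 72.2 and 31.9 to 47.2 CPM. The part of endothelial cells in the change of Igfbp7 was not tested.

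Igfbp5, a binding protein that sticks to the matrix, and Igfbp6, which prefers IGF2, were the lowest of the binding proteins. Igfbp5 was 4.59, 18.9, 32.7, 3.28 and 13.6 CPM in livers and 2.21 to 8.93 CPM over the 15 tumors. The livers were thus split, with replicates 2, 3 and 5 above every tumor and replicates 1 and 4 within their range. Igfbp6 was split the same way, at 2.02, 2.47 and 2.39 CPM in livers 2, 3 and 5 and at 0.502 and 0.478 CPM in livers 1 and 4. The sum of 4 mesothelial markers, chiefly Upk3b and Msln, was 7.30, 11.0 and 4.26 CPM in the former livers and 1.79 and 0.956 CPM in the latter, and the part of mesothelial cells in these levels was not tested. Igfbp5 fell, with log2 fold changes of -1.75, -1.52 and -1.27 in Aldafermin+MYC, FGF19+MYC and sgTrp53+MYC tumors (adjusted p = 0.00464, 0.0117 and 0.029). Without liver replicate 3 the value was -0.98 in FGF19+MYC tumors (adjusted p = 0.0729) and -0.74 in sgTrp53+MYC tumors (adjusted p = 0.17). The latter call was also lost without liver replicate 2 (-1.16) and without sgTrp53+MYC replicate 1 (-1.17), 2 (-1.23) or 4 (-1.14). With library totals all 3 calls of Igfbp5 were lost (-0.91, -0.67 and -0.39). Igfbp6 did not pass in any comparison over all libraries, with log2 fold changes against livers of -0.40, -0.57 and -1.07 (adjusted p = 0.503, 0.34 and 0.0747). It passed in sgTrp53+MYC tumors without liver replicate 1 (-1.29, adjusted p = 0.0363) or 4 (-1.29, adjusted p = 0.034).

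The family was also compared as a mixture, on a scale per kilobase of merged exon. The summed level of the 7 binding protein genes was 1146 ± 237 CPM per kilobase in livers, 601 ± 203 in Aldafermin+MYC, 693 ± 238 in FGF19+MYC and 445 ± 101.6 in sgTrp53+MYC tumors. In livers Igfbp4 made up 54.3% ± 9.78 of this sum, Igfbp2 35.0% ± 7.51 and Igfbp1 8.04% ± 4.53 (SD, n = 5). These shares depend on the division by length, without which Igfbp4 was the largest in every group and Igfbp1 held 38.2% in Aldafermin+MYC and 42.0% in FGF19+MYC tumors, against 51.6% and 51.2% for Igfbp4. Per kilobase, in Aldafermin+MYC tumors Igfbp1 held 59.6% ± 13.2 and Igfbp2 1.85% ± 2.28, and in FGF19+MYC tumors they held 62.9% ± 12.1 and 3.74% ± 3.08. The sgTrp53+MYC tumors had shares of 29.0% ± 18.3 for Igfbp1 and 28.8% ± 14.9 for Igfbp2. Igfbp4 held 32.5% ± 10.2, 31.2% ± 11.0 and 37.9% ± 4.56 in Aldafermin+MYC, FGF19+MYC and sgTrp53+MYC tumors.

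Replicate 4 of the sgTrp53+MYC tumors stood apart in this mixture. Its share of Igfbp1 was 61.2%, against 16.03 to 25.6% in the other 4 libraries, and its share of Igfbp2 was 4.90%, against 28.8 to 45.3%. Both lay within the ranges of the FGF19+MYC tumors (49.0 to 76.2% and 0.869 to 7.51%). The same library had 1267 CPM of Afp and 397 CPM of Gpc3, against at most 445 and 163 CPM in the other sgTrp53+MYC tumors, while its Trp53 was 51.0 CPM. These shares are descriptions, and shares of a sum are not independent of each other.

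**Figure D3:**
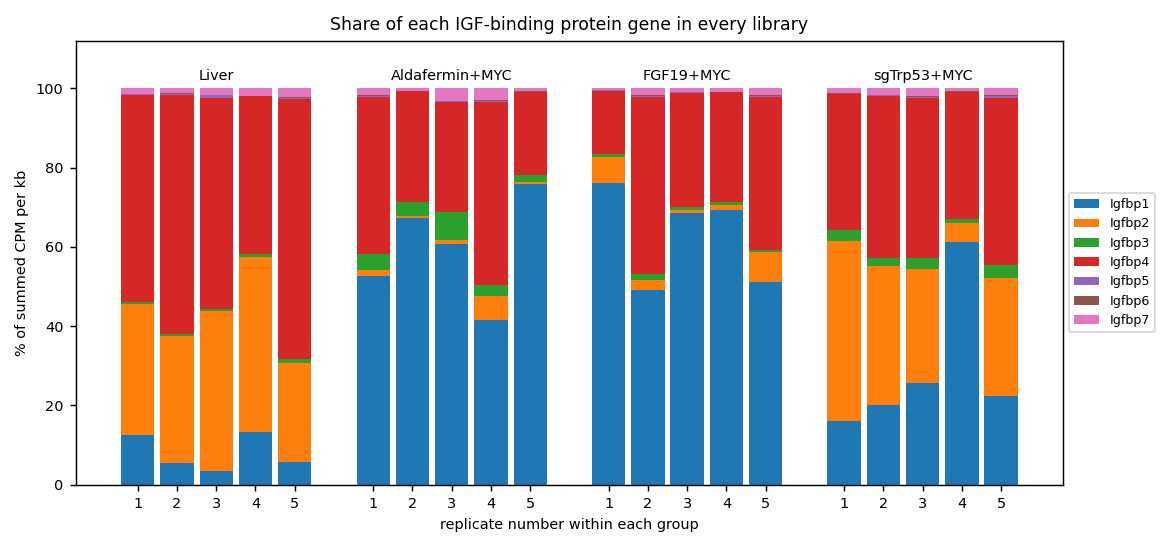
Share of Igfbp1 to Igfbp7 in their summed CPM per kilobase (y axis, %), with a stacked bar for each of the 20 libraries in order of replicate number within each group. Igfbp1 makes up 41.6 to 76.2% in Aldafermin+MYC and FGF19+MYC tumors and 3.35 to 13.3% in livers, and sgTrp53+MYC replicate 4, at 61.2%, differs from the other 4 of its group.

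The second question was whether the IGF genes differed when MYC was paired with FGF19 or with Aldafermin. No member was called between Aldafermin+MYC and FGF19+MYC tumors, where 0% of all tested genes were called higher and 0% lower. In this comparison edgeR's quasi-likelihood test called 0 genes, while 1048 had an unadjusted p under 0.05, DESeq2 called 96, edgeR's likelihood ratio test 59, and the quasi-likelihood test on the first count table alone 20. Igfbp3 had been seen in this contrast before and is given here as a description only. Every Aldafermin+MYC tumor (44.1 to 127 CPM) was above every FGF19+MYC tumor (14.4 to 26.8 CPM), with means of 75.3 ± 31.7 and 19.98 ± 4.69 CPM and a log2 difference of 1.92 (standard error 0.33, interval from 1.23 to 2.60). Its neighbour Igfbp1 had a log2 difference of -0.27 (interval from -1.40 to 0.86, adjusted p = 0.986).

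Igfbp2 and Igf2r leaned toward the FGF19+MYC tumors without passing the test. The log2 difference of Igfbp2, Aldafermin+MYC over FGF19+MYC, was -1.64 (interval from -3.09 to -0.20, adjusted p = 0.588), with overlapping ranges. For Igf2r it was -0.56 (interval from -1.08 to -0.05, adjusted p = 0.618), also with overlapping ranges. The median log2 difference of the 10 members was -0.12, against 0.02 over all genes.

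The third comparison set each of these tumors against sgTrp53+MYC tumors. From Aldafermin+MYC tumors, 1 member was higher, Igfbp3, and 1 was lower, Igfbp2, where 10.2% and 7.53% of all tested genes were called. From FGF19+MYC tumors, 1 member was higher, Igfbp1, and 1 was lower, again Igfbp2, where 7.97% and 7.78% of all tested genes were called. Both comparisons use the same sgTrp53+MYC libraries. The median log2 difference of the members was 0.48 and 0.31, against -0.01 and -0.03 over all genes. Igfbp7, Aldafermin+MYC over sgTrp53+MYC, had a log2 difference of 0.69 (interval from 0.06 to 1.32, adjusted p = 0.12). It passed without Aldafermin+MYC replicate 2 (0.89, adjusted p = 0.0294).

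Igfbp2 differed most. Every Aldafermin+MYC tumor (7.62 to 53.0 CPM) was below every sgTrp53+MYC tumor (59.1 to 467 CPM), with a log2 difference of -3.77 (standard error 0.75, adjusted p = 0.00219). Against FGF19+MYC tumors, whose range overlapped, the log2 difference was -2.12 (standard error 0.70, adjusted p = 0.0459), FGF19+MYC over sgTrp53+MYC. The first call was kept whichever single library was left out, with a value of -4.64 without Aldafermin+MYC replicate 4. The second was kept only without FGF19+MYC replicate 1 or sgTrp53+MYC replicate 4, and its values then ranged from -2.77 to -1.79 over all 10 libraries left out in turn. It was also lost in the fit to only the 2 compared groups. In order, the means were 850.5 ± 332 CPM in livers, 256 ± 152 in sgTrp53+MYC, 58.8 ± 59.4 in FGF19+MYC and 18.8 ± 19.4 in Aldafermin+MYC tumors, and the last 2 did not differ beyond their spread.

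Igfbp1 was 3.29-fold higher in FGF19+MYC than in sgTrp53+MYC tumors (log2 difference 1.72, standard error 0.55, adjusted p = 0.0418), and leaving out any of these 10 libraries but FGF19+MYC replicate 2 and sgTrp53+MYC replicate 4 ended the call, with adjusted p up to 0.0962. The fit to only the 2 compared groups did not call it either. In Aldafermin+MYC tumors the log2 difference from sgTrp53+MYC tumors was 1.44 (interval from 0.29 to 2.59, adjusted p = 0.0753). Without sgTrp53+MYC replicate 4, the library with 603 CPM, these were 2.43 (adjusted p = 0.00449) and 2.16 (adjusted p = 0.00858), both past the threshold. With the replicate number as a block the difference in Aldafermin+MYC tumors was 1.79 (adjusted p = 0.0371). DESeq2 (1.40, adjusted p = 0.036) and edgeR's likelihood ratio test (adjusted p = 0.0425) called it as well. From high to low the means of Igfbp1 were in the order FGF19+MYC, Aldafermin+MYC and sgTrp53+MYC tumors and livers. In that order the first pair did not pass, and the call of each of the others depended on the setting.

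Igfbp3 was 2.08-fold higher in Aldafermin+MYC than in sgTrp53+MYC tumors (log2 difference 1.05, standard error 0.32, adjusted p = 0.0291), where only Aldafermin+MYC replicate 4 reached into the range of the other group. As in the comparison with livers, the Aldafermin+MYC values were known when the genes were chosen, so this p-value is not independent of that choice. The call was lost without Aldafermin+MYC replicate 3 (0.78, adjusted p = 0.106), and without sgTrp53+MYC replicate 2 (1.04), 4 (0.90) or 5 (1.06, adjusted p = 0.0571). It was also lost with the replicate number as a block (adjusted p = 0.0516), without a filter on low counts and in the fit to only the 2 compared groups. Between FGF19+MYC and sgTrp53+MYC tumors the log2 difference was -0.86 (interval from -1.53 to -0.19, adjusted p = 0.074). DESeq2 (adjusted p = 0.0416), edgeR's likelihood ratio test (adjusted p = 0.0496) and the fit without sgTrp53+MYC replicate 4 (-1.01, adjusted p = 0.0374) called this difference. The FGF19+MYC levels of Igfbp3 were also known when the genes were chosen, so none of these p-values is independent of that choice. From high to low the means of Igfbp3 were in the order Aldafermin+MYC, sgTrp53+MYC, livers and FGF19+MYC, and neither sgTrp53+MYC nor FGF19+MYC tumors passed the test against livers on the TMM scale, while with library totals sgTrp53+MYC tumors did (1.26, adjusted p = 0.0014).

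**Figure D4:**
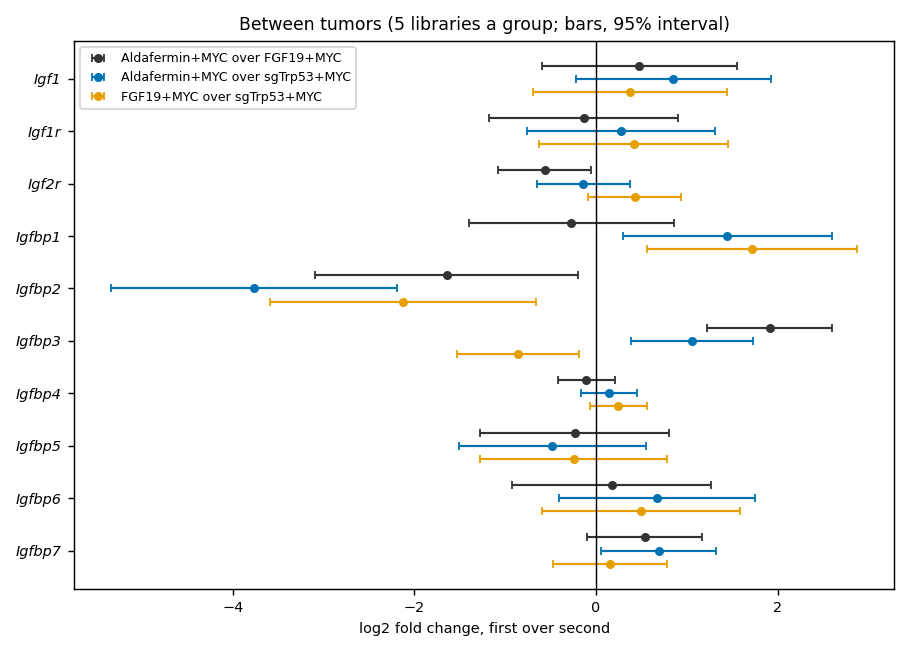
Log2 difference of each gene between pairs of tumor groups (x axis), with bars for the 95% interval of the quasi-likelihood fit. Igfbp2 is to the left of 0 in all 3 pairs and Igfbp3 to the right in both pairs that include Aldafermin+MYC tumors, while Igfbp4 is at -0.10, 0.14 and 0.25.

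Other genes of the IGF pathway were taken from a list of 41 genes by role, of which 35 were tested. Against livers, 8 were higher and 19 lower in Aldafermin+MYC (38.4% and 31.9% over all tested genes), 8 higher and 19 lower in FGF19+MYC (36.9% and 32.9%), and 8 higher and 16 lower in sgTrp53+MYC tumors (36.9% and 33%). This balance rests on the TMM factors, since with library totals 12 were higher and 7 lower, 15 higher and 7 lower, and 14 higher and 4 lower. Between tumors, 2 were higher and 3 lower in Aldafermin+MYC than in sgTrp53+MYC (10.2% and 7.53% over all tested genes), 0 higher and 3 lower in FGF19+MYC than in sgTrp53+MYC (7.97% and 7.78%), shares near or below those of all genes, and 0 were called between Aldafermin+MYC and FGF19+MYC tumors by edgeR's quasi-likelihood test.

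The other ligand, Igf2, replaced Igf1 as the main IGF transcript of every tumor. Igf2 was 0.733 to 11.2 CPM in livers and 2037 to 7365 CPM over the 15 tumors, a log2 fold change of 10.82, 10.52 and 10.35 in Aldafermin+MYC, FGF19+MYC and sgTrp53+MYC tumors (adjusted p = 1.02e-09, 1.21e-09 and 1.35e-09). Per kilobase, Igf1 was 380 ± 291 times the level of Igf2 in livers, whereas Igf2 was 459 ± 336, 444 ± 282 and 509 ± 305 times the level of Igf1 in the 3 tumor groups. Liver replicate 4, with the most Igf2 (11.2 CPM), also had the most Afp (6.35 CPM) and Igf2bp3 (0.956 CPM) among livers.

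The growth hormone axis drives Igf1 in liver. Of its 6 tested genes, 5 were lower in Aldafermin+MYC and in FGF19+MYC tumors and 4 in sgTrp53+MYC tumors, beside 31.9%, 32.9% and 33% of all tested genes, and none was higher. Stat5a passed in no tumor group and Stat5b not in sgTrp53+MYC tumors, and with library totals 4, 4 and 2 were lower and 1, 2 and 2 higher. Ghr, the growth hormone receptor, had 611 ± 92.6 CPM in livers and 72.7 ± 17.6, 73.8 ± 13.1 and 71.1 ± 16.5 CPM in Aldafermin+MYC, FGF19+MYC and sgTrp53+MYC tumors (log2 fold change -3.07, -3.05 and -3.10, adjusted p = 1.31e-10, 1.43e-10 and 1.06e-10). Socs2, a target and brake of the same receptor, fell in the same order with log2 fold changes of -4.28, -3.86 and -3.59 (adjusted p = 6.89e-06, 1.88e-05 and 3.24e-05). Jak2, the kinase of the receptor, had -1.70, -1.97 and -1.40 (adjusted p = 2.59e-05, 5.41e-06 and 0.000182), of which the last was lost with library totals (-0.49, adjusted p = 0.16). Igfals, whose product holds IGF and IGFBP3 in the large complex of the blood, fell 26.3-fold, 37.5-fold and 45.5-fold (adjusted p = 1.85e-07, 6.41e-08 and 3.45e-08).

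**Figure D5:**
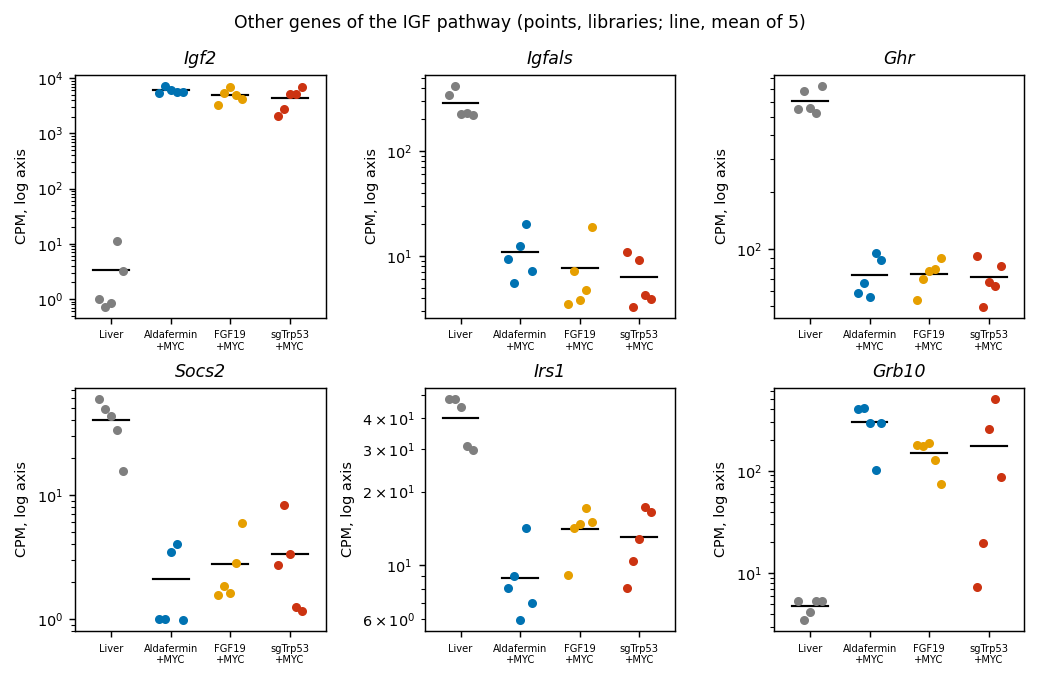
Level (CPM, log axis) of Igf2, Igfals, Ghr, Socs2, Irs1 and Grb10 in livers and the 3 tumor groups, with a point per library and a line at the mean of 5. Igf2 and Grb10 are higher in every tumor than in every liver, and Igfals, Ghr, Socs2 and Irs1 are lower in every tumor.

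Downstream of the receptors the changes went both ways, and several of them depended on the scale. Irs1, an adaptor that passes the signal on, fell with log2 fold changes of -2.19, -1.52 and -1.63 in Aldafermin+MYC, FGF19+MYC and sgTrp53+MYC tumors (adjusted p = 4.25e-07, 3.07e-05 and 1.28e-05). Grb10, an imprinted adaptor that restrains the insulin and IGF1 receptors, rose from 4.77 ± 0.877 CPM in livers to 299 ± 124, 148 ± 46.9 and 174 ± 208 CPM (adjusted p = 4.97e-06, 2.61e-05 and 1.68e-05), and ranged from 7.40 to 503 CPM among the sgTrp53+MYC tumors. Insr, the insulin receptor, fell 2.72-fold, 2.18-fold and 2.37-fold (adjusted p = 2.1e-05, 0.000279 and 0.0001), but with library totals none of these passed (-0.59, -0.28 and -0.34, adjusted p = 0.0551, 0.36 and 0.257). On the TMM scale Shc1 was lower in FGF19+MYC and sgTrp53+MYC tumors (log2 fold change -0.40 and -0.54, adjusted p = 0.00953 and 0.001) and had -0.28 in Aldafermin+MYC tumors (adjusted p = 0.0627), whereas with library totals all 3 values turned to 0.58, 0.45 and 0.36 in Aldafermin+MYC, FGF19+MYC and sgTrp53+MYC tumors (adjusted p = 0.00434, 0.02 and 0.0586). In the PI3K and AKT branch, 10, 9 and 8 of 14 genes were lower and 2, 2 and 3 higher in these tumors, beside 31.9%, 32.9% and 33% lower and 38.4%, 36.9% and 36.9% higher over all tested genes. With library totals 1, 1 and 0 were lower and 3, 4 and 4 higher. Akt2, which encodes an AKT kinase, was among those lower in all 3 groups on the TMM scale (log2 fold changes from -1.16 to -0.63) and passed in none with library totals (0.23, 0.06 and -0.26), and Rps6kb1, the kinase S6K1, was higher in all 3 (0.75 to 1.15).

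Igf2bp3, a fetal protein that binds Igf2 mRNA, was 0 to 0.956 CPM in livers and 47.4 to 131 CPM over the tumors (log2 fold changes of 8.43, 8.18 and 8.79, adjusted p = 3.25e-10, 4.39e-10 and 1.83e-10). Igf2bp1 had 0 reads in every liver, 0.397 to 9.55 CPM in Aldafermin+MYC tumors, 1.17 to 3.91 CPM in FGF19+MYC tumors and 0 to 1.47 CPM in sgTrp53+MYC tumors. Igf2bp2 passed in no comparison and was 1.23 to 4.38 CPM in livers and 0.0496 to 1.81 CPM in Aldafermin+MYC and FGF19+MYC tumors, and 0.169 to 32.0 CPM in sgTrp53+MYC tumors. Of the genes that protect binding proteins from cleavage, Stc1 had at most 3 reads in any liver and was 0.968 to 8.31 CPM in the tumors, and Stc2 rose in Aldafermin+MYC (log2 fold change 3.44, adjusted p = 0.00319) and FGF19+MYC tumors (2.31, adjusted p = 0.0355), with 2.03 in sgTrp53+MYC tumors (adjusted p = 0.0563). Stc2 did not pass in any pair of tumor groups (adjusted p from 0.241 to 0.877). The protease gene Htra1 passed in no comparison, and the genes of the PAPP-A proteases were too low to be tested.

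Within the tumors, each member was also followed from library to library, as the difference from the mean of its group on the log2 CPM scale. These are descriptions over the 15 tumor libraries, which share their groups, depths and tissue, and for each member the 3 genes most like it were kept. Igf1 varied most like Mbl2 (Pearson's r = 0.931), C4bp (0.93) and Ephx1 (0.923), all genes of hepatocytes. Igfbp1 varied most like Nr0b2 (0.919), which encodes a nuclear receptor that represses bile acid synthesis, with Gm4952 (0.90) and the HDL receptor gene Scarb1 (0.899). Igfbp2 varied most like Inmt (0.872), Iah1 (0.817) and Urah (0.815). For Igfbp3 the highest values were lower, 0.823 for 9430015G10Rik, 0.795 for Cyb5r1 and 0.74 for Il10rb.

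Igfbp5 and Igfbp7 both varied most like Gas6, a ligand of TAM receptors (r = 0.871 and 0.913), followed by Mylk (0.856) and Entpd1 (0.853) for Igfbp5 and by the endothelial gene Plvap (0.899) and Timp2 (0.866) for Igfbp7. Igf1r varied most like Tgfb1 (0.964), Ehbp1l1 (0.937) and Adgre5 (0.935). Igf2r varied most like Tenm3 (0.971), Pip4k2b (0.97) and Bptf (0.96). Igfbp4 varied most like Gstt1 (0.811), Serpina1a (0.747) and Cpn2 (0.745), and Igfbp6, at its low level, like Vill (0.869), Ring1 (0.846) and Tm2d2 (0.843). Among the members themselves, Igfbp5 and Igfbp7 (0.727) and Igf1r and Igfbp7 (0.697) varied together, while Igf2r and Igfbp6 (-0.77), Igfbp3 and Igfbp4 (-0.718) and Igfbp1 and Igfbp5 (-0.66) varied in opposite directions. The neighbours Igfbp1 and Igfbp3 had r = -0.24, and the neighbours Igfbp2 and Igfbp5 0.189.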

How the data were processed

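RNA sequencing was done on 20 mouse libraries, each from a different mouse, in 4 groups of 5. The authors deposited raw counts, whole numbers of reads per gene symbol without normalization, in 2 tables, of which the second holds the sgTrp53+MYC libraries alone. Per the labels and the methods of the study, stranded mRNA libraries were demultiplexed with bcl2fastq 2.20.0.422, aligned to mm39 with HISAT2 and counted with htseq-count on the RefSeq annotation, and the versions of the last 2 tools are not given in the sources used here. There were 0 unused sample columns, and the 5 summary lines of htseq-count were removed from the 50559 genes. Groups came from the sample titles.

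The members and lists were chosen with earlier results of these data known. In R 4.3.3 with edgeR 4.0.16, a filter of 1 CPM reached in 5 or more libraries left 14333 genes, among them all 10 members. TMM factors were then computed, and a single quasi-likelihood fit took in all 4 groups. The 6 pairwise comparisons were tested with Benjamini-Hochberg adjustment over all tested genes, and intervals are 95%. The test was checked on simulated counts. CPM are on the TMM scale and CPM per kilobase divides by merged GENCODE M39 exons of GRCm39, while counting used RefSeq. Correlations used log2 CPM with a prior count of 2 and genes whose mean reached 10 CPM. All members are named, with, for each role of the pathway list, up to 3 genes with the smallest adjusted p (Igf2, Igfals and Ghr always). A gene that this rule names is not reported here. Promoters were found for all 10 members. Sums of marker genes were read for hepatocytes, endothelium, stellate cells and fibroblasts, macrophages, cholangiocytes, mesothelium, T and NK cells, B and plasma cells and erythroid cells.

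Alternatives were other size factors, no filter, DESeq2 1.42.0, edgeR's likelihood ratio test, only the 2 compared groups, only the first table, the replicate number as a block, each library left out in turn and, chosen after seeing the data, library totals without TMM factors, also for the pathway list. Replicate numbers belong to different mice, and same-numbered libraries deviated together at r from -0.333 to 0.333, so they do not pair the samples. Depth was 18004977 to 66354724 reads per library on genes, and p-values measure the spread between mice.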

Additional observations from a re-analysis of the deposited data

Results flagged for a closer look

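In 40 groups of 5 libraries (10 genes in 4 groups), a single library stood far off in 2 cases, and chance gives about 1 in 20, or 2. One was Igfbp1 in sgTrp53+MYC replicate 4, at 603 CPM against 119 to 168 CPM in the others, and the other was Igfbp2 in Aldafermin+MYC replicate 4, at 53.0 CPM against 7.62 to 15.5 CPM.

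In 4 cases the change against livers of a member differed between tumor groups in edgeR's quasi-likelihood test of the difference itself. The livers cancel out of such a difference, so these 4 are the same tests as the calls against sgTrp53+MYC tumors given above and add no further result. For Igfbp2, the difference was -3.77 on the log2 scale between Aldafermin+MYC and sgTrp53+MYC tumors (adjusted p = 0.00219) and -2.12 between FGF19+MYC and sgTrp53+MYC tumors (adjusted p = 0.0459). For Igfbp3 it was 1.05 between Aldafermin+MYC and sgTrp53+MYC tumors (adjusted p = 0.0291), which is not independent of the choice of genes, made with the Aldafermin+MYC levels of Igfbp3 known, and for Igfbp1 it was 1.72 between FGF19+MYC and sgTrp53+MYC tumors (adjusted p = 0.0418). All 4 are also differences between the 2 count tables.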

How the results depend on the processing

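Calls of Igf1, Igf2r and Igfbp4 against livers, of Igfbp1 against livers in Aldafermin+MYC and FGF19+MYC tumors, of Igfbp3 against livers in Aldafermin+MYC tumors, and of Igfbp2 against livers in Aldafermin+MYC and FGF19+MYC tumors and between Aldafermin+MYC and sgTrp53+MYC tumors kept their direction and their side of the threshold under every alternative run. Of these, the call of Igfbp3 is not independent of the choice of genes, made with its Aldafermin+MYC levels known. That it was kept is therefore a description only. Without a filter, sgTrp53+MYC tumors differed from Aldafermin+MYC tumors in 1 member, which was Igfbp2, from FGF19+MYC tumors in 1 and from livers in 4. Igf1, Igf2r and Igfbp4 were among those 4, so most of the calls of Igf1r, Igfbp2, Igfbp5 and Igfbp7 in sgTrp53+MYC tumors against livers were lost. Between Aldafermin+MYC and FGF19+MYC tumors, DESeq2, the likelihood ratio test and the first table alone each called 1 member, Igfbp3, as did leaving out Aldafermin+MYC replicate 4. Since this contrast of Igfbp3 was known when the genes were chosen, these counts are a description and support nothing. With only the 2 compared groups, 1 was called for Aldafermin+MYC against sgTrp53+MYC tumors and 0 for FGF19+MYC against them. The 1 called was Igfbp2, so the call of Igfbp3 in the former pair and those of Igfbp1 and Igfbp2 in the latter were lost. When each library in turn was omitted, the number of members called was 0 to 1 for Aldafermin+MYC against FGF19+MYC, 1 to 3 for Aldafermin+MYC against sgTrp53+MYC, 0 to 3 for FGF19+MYC against sgTrp53+MYC, and 8 to 9, 6 to 7 and 5 to 8 against livers. Without division by length, the share of Igfbp1 among binding protein transcripts was 38.2% in Aldafermin+MYC and 42.0% in FGF19+MYC tumors.

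With library totals, the direction turned for Igfbp6 against livers in Aldafermin+MYC (0.40) and FGF19+MYC tumors (0.25) and for Igfbp3 in FGF19+MYC tumors (0.36), none of them called, and 77.3 to 78.2% of the genes called against livers were higher, in place of 52.8 to 54.6%. Of the pathway list, sgTrp53+MYC tumors then differed from Aldafermin+MYC tumors in 3 genes and from FGF19+MYC tumors in 1, and against livers the direction turned for Akt2 (0.23 in Aldafermin+MYC and 0.0636 in FGF19+MYC tumors), Shc1 (0.58, 0.45 and 0.36 in the 3 groups) and, uncalled, Htra1 (0.54 in sgTrp53+MYC tumors). Of the genes called in Aldafermin+MYC over sgTrp53+MYC tumors 57.4% were higher, against 43.6% without a filter and 47% by DESeq2, and in FGF19+MYC over sgTrp53+MYC tumors 50.6% were higher, against 37.9% without a filter. Other uncalled differences turned when 1 library was omitted. For Aldafermin+MYC over FGF19+MYC tumors the log2 difference then ranged from -0.0615 to 1.02 for Igf1 (lowest without Aldafermin+MYC replicate 4), from -0.85 to 0.0857 for Igf1r (above 0 without Aldafermin+MYC replicate 1, 2 or 5), from -0.68 to 0.0404 for Igfbp1 (above 0 without FGF19+MYC replicate 1) and from -0.26 to 0.43 for Igfbp6 (below 0 without Aldafermin+MYC replicate 5). Over sgTrp53+MYC tumors, Aldafermin+MYC tumors ranged from -0.43 to 0.81 for Igf1r (below 0 without Aldafermin+MYC replicate 3) and from -0.27 to 0.0532 for Igf2r (above 0 without sgTrp53+MYC replicate 4), and FGF19+MYC tumors from -0.17 to 0.80 for Igf1 and from -0.0631 to 0.25 for Igfbp7 (both below 0 without FGF19+MYC replicate 5). For sgTrp53+MYC tumors over livers, Igfbp1 ranged from -0.23 (without sgTrp53+MYC replicate 4) to 0.91. The cause was not tested.

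With the replicate number as a block, 0, 2, 2, 9, 7 and 6 members were called in the 6 comparisons. Igfbp1 between Aldafermin+MYC and sgTrp53+MYC tumors passed (log2 difference 1.79), while Igfbp3 in that comparison (1.05, adjusted p = 0.0516) and Igfbp5 between sgTrp53+MYC tumors and livers (-1.14, adjusted p = 0.0533) did not, and no other call of a member changed.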
